A study of Mus musculus with 10 samples.

Results

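The stromal matrix proteases and their inhibitors considered here were 10 genes given by name, namely the matrix metalloproteases Mmp2, Mmp14 and Mmp15, the ADAMTS proteases Adamts1, Adamts4 and Adamts5, and the tissue inhibitors of metalloproteases Timp1, Timp2, Timp3 and Timp4. They are 6 proteases and 4 inhibitors among the 39179 genes counted, and all 10 were matched by symbol. Matrix metalloproteases are zinc enzymes that are made as inactive precursors and cut collagens, gelatin and other proteins of the extracellular matrix (ECM). ADAMTS proteases cut proteoglycans such as versican and aggrecan. TIMPs bind the active site of matrix metalloproteases, and TIMP3 also blocks ADAMTS4 and ADAMTS5. In resting muscle the ECM around the fibers is made largely by fibroblast-like cells, and collagen deposition and its breakdown proceed together.

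RNA was measured in the tibialis anterior (TA), a fast muscle on the front of the shin, in 4 Control mice injected with PBS and in 6 mice (LLC) that carried tumors of Lewis Lung Carcinoma cells, a mouse lung cancer line injected under the skin of both flanks. The labels name no engineered allele. The sample labels give C57BL/6J mice injected at 10 weeks of age and muscle collected 23 days after injection, whereas the design text of the series gives male C57BL/10 mice at 8 weeks and 22 days, so strain, age and day are uncertain. Per the methods of the study, the LLC samples came from mice that survived to the end of the experiment.

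Total counts ranged from 16693209 to 21303084 per sample. Muscle fiber genes (Acta1, Ckm, Myh1, Myh4, Mylpf and Tnnt3) summed to at least 70964 CPM in every sample, where CPM are read counts scaled to the library total. LLC 1 stood apart from its group. Its distance from the LLC mean over all tested genes was 76.97 log2 units, against 29.03 to 40.16 in the other LLC samples, and results that rest on it are given with and without it. Since whole muscle was sequenced, fewer cells of a type and less RNA per cell cannot be told apart.

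The 10 genes differed widely in level in Control muscle. Compared per kilobase of exon, which allows levels of different genes to be set side by side, Timp2 was the most abundant at 12.7 ± 0.401 CPM per kilobase (SD, n = 4), and its range did not overlap that of any other gene. Mmp2 (5.76), Adamts1 (5.46), Timp4 (5.39), Timp3 (5.04) and Mmp15 (4.25 CPM per kilobase) followed, and each of these overlapped its neighbor in the order. Mmp14 (1.16) and Adamts5 (0.963 CPM per kilobase) formed a lower tier and overlapped each other, and Timp1 (0.366) and Adamts4 (0.115 CPM per kilobase) were at the bottom. In LLC muscle the order changed. Timp2 (6.98) and Adamts1 (6.78 CPM per kilobase) then led with overlapping ranges, while Mmp2 stood at 1.43 CPM per kilobase, below the range of Timp3 and overlapping those of Timp4 and Mmp15.

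Of the 10 genes, 9 had enough counts to be tested. A gene was called where edgeR's quasi-likelihood test gave a Benjamini-Hochberg adjusted p up to 0.05 over all 12690 tested genes and the change reached 1.5-fold. By this rule 3 were lower in LLC (Mmp2, Adamts5 and Timp2) and 1 was higher (Adamts4). Across all tested genes 3.99% were called lower and 1.65% higher, 5.63% in all. The other 5 genes tested did not pass. By class, 3 of 6 proteases and 1 of 3 tested inhibitors passed. The median log2 fold change was -0.54 over the 6 proteases and -0.86 over the 3 tested inhibitors, beside 0.00 over all tested genes. Groups that did not overlap at all were seen for the 3 genes that fell, against 9.57% of all tested genes in that direction, and for 0 genes in the other direction, against 6.40% (16.0% in all). The DESeq2 Wald test called 5 genes, 4 lower (Timp4 being added) and 1 higher, against 5.23% and 3.06% of all tested genes, 8.29% in all. Without LLC 1, edgeR called 6 genes, because Timp3 and Timp4 then also fell, against 7.65% of all tested genes. In that fit 5 genes had LLC ranges below Control, where 10.4% of all tested genes did so and 18.3% had separate ranges in either direction.

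**Figure D1:**
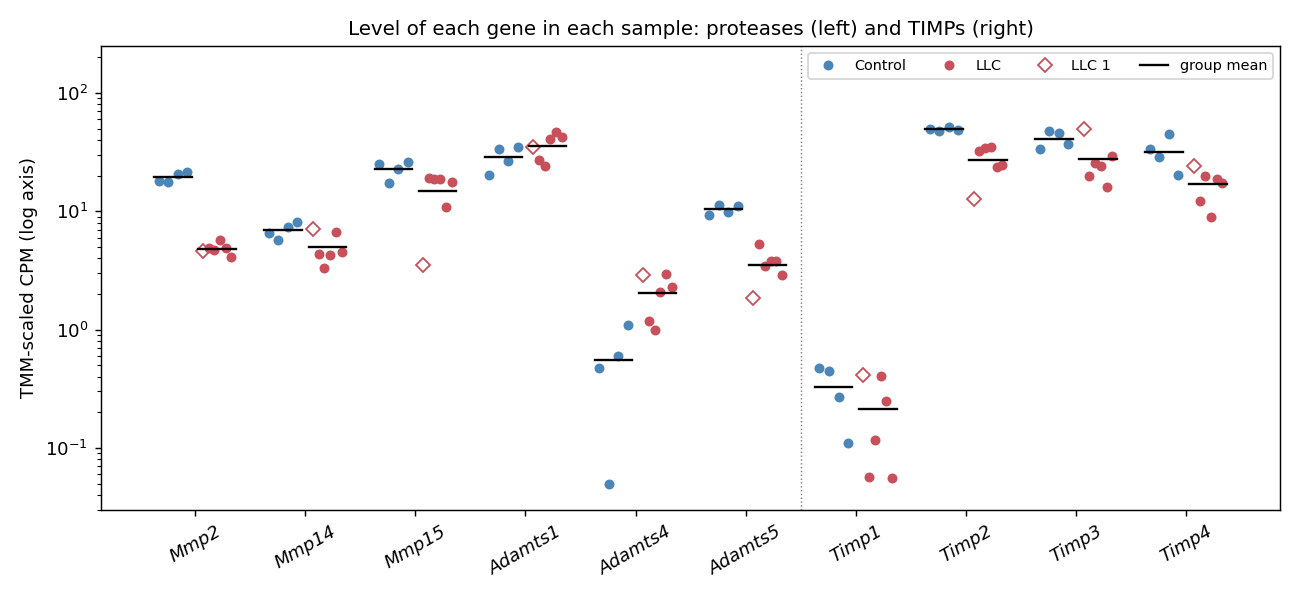
Level of each gene in each sample as CPM scaled by TMM, on a log axis, for Control (blue circles) and LLC (red circles, with LLC 1 as an open diamond), with a bar at each group mean. Mmp2, Adamts5 and Timp2 show no overlap between the groups, Adamts4 is higher in LLC with a small overlap, and LLC 1 stands away from the other LLC samples for Mmp15, Timp2 and Timp3.

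Mmp2 encodes gelatinase A, which degrades denatured collagen and the type IV collagen of basement membranes (chromosome 8, 92827291 to 92853420, build GRCm38). Its level was 18.1, 17.6, 20.6 and 21.5 CPM in the Control samples and 4.14 to 5.69 CPM in LLC, with a median of 4.80. The groups lay far apart, and every LLC sample stood at 21.3% to 29.3% of the Control mean. Mmp2 fell by 75.1%, with a log2 fold change of -2.01 ± 0.11 (SE, edgeR quasi-likelihood, Benjamini-Hochberg adjusted p = 2.29e-06), and by p-value Mmp2 ranked 2 among the 12690 tested genes. Its coefficient of variation within LLC was 10.6%, the lowest of the 10 genes, whereas the other tested genes ranged from 24.9% to 43.3%. LLC 1, at 4.58 CPM, was not distinct for this gene. The call held in all 19 alternative fits.

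Mmp14 encodes a membrane-anchored protease that cuts fibrillar collagen and, with TIMP2 as a bridge, activates the Mmp2 precursor at the cell surface (chromosome 14, 54431612 to 54445364). Control samples had 6.51, 5.68, 7.30 and 8.11 CPM, and LLC samples ran from 3.30 to 7.10 CPM with a median of 4.44. LLC 1 (7.10 CPM) and LLC 5 (6.69 CPM) lay inside the Control range and the other LLC samples below it. Mmp14 did not pass, at a log2 fold change of -0.45 ± 0.21 (SE, edgeR quasi-likelihood, Benjamini-Hochberg adjusted p = 0.185), and its 95% interval ran from -0.93 to 0.03. It passed with limma voom and sample quality weights, at -0.70 (Benjamini-Hochberg adjusted p = 0.00519), and over 19 alternative fits its adjusted p reached 0.368 (edgeR, DESeq2 or limma). Without LLC 1 the log2 fold change was -0.56 ± 0.18 (SE) and narrowly missed (edgeR quasi-likelihood, Benjamini-Hochberg adjusted p = 0.058). The 95% interval for Mmp2 itself, -2.25 to -1.76, did not overlap that of its activator.

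Mmp15 encodes another membrane-type protease (chromosome 8, 95352268 to 95375080). It measured 25.3, 17.4, 23.0 and 26.1 CPM in Control and 3.50 to 19.3 CPM in LLC, with a median of 18.2. The groups overlapped, and the lowest value by far was LLC 1, at 15.2% of the Control mean. The log2 fold change was -0.63 ± 0.35 (SE) with all samples and -0.42 ± 0.16 (SE) without LLC 1, and neither passed (edgeR quasi-likelihood, Benjamini-Hochberg adjusted p = 0.257 and 0.102), and 0.419 was the highest adjusted p over its alternative fits. Its 95% interval with all samples was -1.45 to 0.18.

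The ADAMTS genes went in different directions. Adamts5, which encodes a major aggrecan-cutting and versican-cutting enzyme (chromosome 16, 85856173 to 85901828), had 9.32, 11.4, 9.79 and 11.1 CPM in Control and 1.85 to 5.25 CPM in LLC, with a median of 3.60. All LLC samples were below all Control samples, LLC 1 being the lowest. Adamts5 fell by 66.3%, with a log2 fold change of -1.57 ± 0.21 (SE, edgeR quasi-likelihood, Benjamini-Hochberg adjusted p = 0.00112), and it was called in all 19 alternative fits.

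Adamts4 encodes the closely related aggrecanase that is inducible by inflammatory signals (chromosome 1, 171250421 to 171260637). It was scarce in Control, with 9, 1, 11 and 20 counts (0.48, 0.0494, 0.59 and 1.10 CPM), and had 17 to 59 counts in LLC (0.985 to 2.92 CPM, median 2.18). The highest Control sample exceeded the lowest LLC sample, LLC 3, and otherwise the groups were separate. Adamts4 rose 3.76-fold, a log2 fold change of 1.91 ± 0.50 (SE) with a wide 95% interval of 0.75 to 3.07 on the log2 scale (edgeR quasi-likelihood, Benjamini-Hochberg adjusted p = 0.0431). This call was lost without Control 1, 2 or 3 and without LLC 4, 5 or 6, and the largest of these values was edgeR quasi-likelihood, Benjamini-Hochberg adjusted p of 0.127. Over 18 alternative fits it ran from 0.00297 to 0.220 (edgeR, DESeq2 or limma adjusted p).

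Adamts1, which encodes a versican-cutting enzyme (chromosome 16, 85793827 to 85803113, on the strand of Adamts5 and close to it), had 20.4, 33.7, 26.5 and 35.3 CPM in Control and 24.1 to 46.8 CPM in LLC, with a median of 37.7. The groups overlapped broadly, with 3 LLC samples (LLC 4, 5 and 6) above all Control samples. Adamts1 did not pass, at a log2 fold change of 0.31 ± 0.21 (SE, edgeR quasi-likelihood, Benjamini-Hochberg adjusted p = 0.334), and the 95% interval was -0.17 to 0.79. The neighboring genes Adamts1 and Adamts5 therefore had log2 fold changes whose 95% intervals were far apart, at -0.17 to 0.79 against -2.06 to -1.08.

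**Figure D2:**
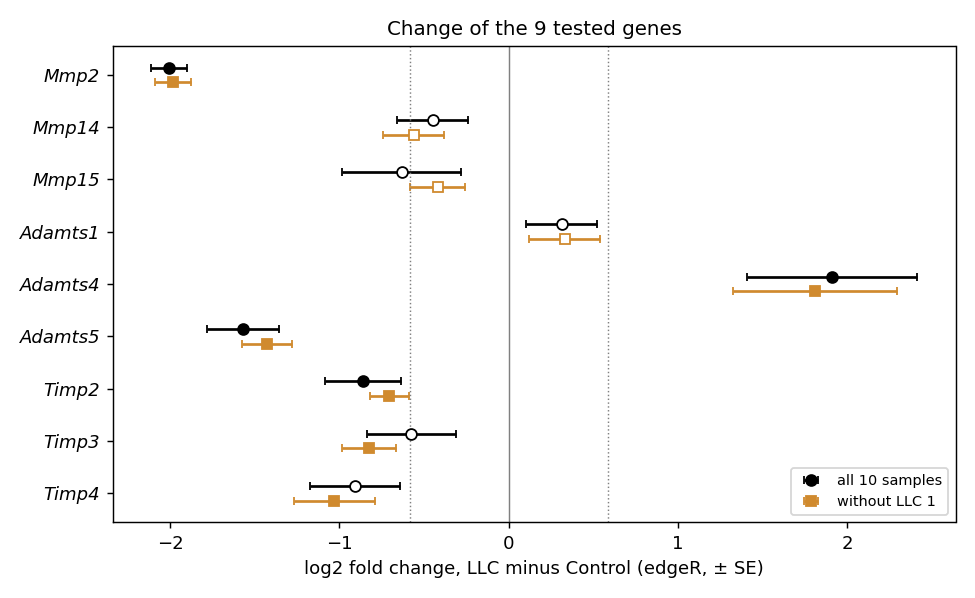
Log2 fold change of LLC minus Control for the 9 tested genes, from edgeR with its SE as bars, over all 10 samples (black circles) and without LLC 1 (orange squares). Filled symbols passed the threshold, dotted lines mark 1.5-fold, and the panel shows Timp3 and Timp4 passing in the fit without LLC 1 and not in the other, with Mmp2, Adamts5, Adamts4 and Timp2 passing in both fits.

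Among the inhibitors, Timp2 fell. It encodes the TIMP that both blocks Mmp2 and takes part in its activation by Mmp14 (chromosome 11, 118301069 to 118355740). Its level was 49.4, 48.0, 51.5 and 48.6 CPM in Control, a narrow band, and 12.6 to 35.2 CPM in LLC, with a median of 28.7. The groups did not overlap. LLC 1 was the lowest, at 25.5% of the Control mean, and the others stood at 48.0% to 71.2%. Timp2 fell by 44.9%, with a log2 fold change of -0.86 ± 0.23 (SE, edgeR quasi-likelihood, Benjamini-Hochberg adjusted p = 0.0426). The call was lost without any 1 of the Control samples and without LLC 5 or LLC 6, with values up to 0.116. Without LLC 1 the log2 fold change was -0.71 ± 0.11 (SE, edgeR quasi-likelihood, Benjamini-Hochberg adjusted p = 0.00228). Over 19 alternative fits the adjusted p for Timp2 ran from 0.000771 to 0.242 (edgeR, DESeq2 or limma).

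Timp3 encodes a matrix-bound inhibitor that blocks ADAMTS4 and ADAMTS5 as well as metalloproteases (chromosome 10, 86300372 to 86349506). Control samples had 33.4, 47.4, 46.3 and 37.1 CPM, and LLC samples 16.0 to 50.03 CPM with a median of 25.1. LLC 1 had the highest value of all 10 samples, while the other 5 LLC samples, at 16.0 to 29.2 CPM, were all below Control. With all samples the log2 fold change was -0.57 ± 0.26 (SE) and did not pass (edgeR quasi-likelihood, Benjamini-Hochberg adjusted p = 0.181). Without LLC 1 it was -0.83 ± 0.16 (SE) and passed (edgeR quasi-likelihood, Benjamini-Hochberg adjusted p = 0.00642). Its adjusted p ran from 0.00287 to 0.394 over 19 alternative fits (edgeR, DESeq2 or limma).

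Timp4 encodes an inhibitor known for its expression in heart, skeletal muscle and fat (chromosome 6, 115241892 to 115252205). It had 33.5, 28.7, 44.7 and 20.3 CPM in Control and 9.02 to 24.2 CPM in LLC, with a median of 18.1. Control spread widely, and the overlap came from LLC 1, the highest LLC sample, against Control 4. Timp4 narrowly missed the threshold, at a log2 fold change of -0.91 ± 0.26 (SE, edgeR quasi-likelihood, Benjamini-Hochberg adjusted p = 0.0622) and passed without LLC 1, at -1.03 ± 0.24 (SE, edgeR quasi-likelihood, Benjamini-Hochberg adjusted p = 0.0162). It also passed in the DESeq2 Wald test with all samples (Benjamini-Hochberg adjusted p = 0.0197), and its adjusted p ran from 0.00671 to 0.194 over 19 alternative fits (edgeR, DESeq2 or limma).

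Timp1, the classic inflammation-inducible inhibitor, was barely present (chromosome X, 20870166 to 20874735). It had 9, 9, 5 and 2 counts in Control and 1 to 8 counts in LLC, and 4 of the 10 samples were at or below the floor of 3 counts, which corresponds to 0.148 to 0.174 CPM. It was too low to be tested, and no difference was detectable at this depth. With no filter on low counts its log2 fold change was -0.55 ± 0.55 (SE).

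Exons of Timp3 overlap those of Syn3 on the other strand over 1733 bases, or 21.3% of its exonic length, and those of Timp4 overlap Syn2 over 90 bases, or 1.53%. Timp1 lies inside Syn1, also on the other strand, with no shared exon bases. The synapsin genes that host these inhibitors were scarce in this muscle. Syn3 averaged 0.265 CPM in Control and 0.235 CPM in LLC, and Syn1 had a mean of 0.7 counts per sample. Syn2 averaged 1.303 CPM in Control and 1.76 ± 1.80 CPM (SD) in LLC, where the median was 1.22 and the maximum 5.35 CPM. Whether reads were shared across strands was not tested. No exon of Mmp2, Mmp14, Mmp15, Timp2, Adamts1 or Adamts5 overlaps another gene.

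Proteases were next set against their inhibitors within each library, as the difference in log2 CPM, in which library scaling cancels. The 6 pairs follow known complexes and known inhibition. These differences were not tested, because the genes were chosen with results of these data known. For Mmp2 and Timp2 the difference was -1.44 to -1.17 in Control. In LLC it was -2.82 to -2.26 in 5 samples and -1.44 in LLC 1, where Timp2 was at its lowest, and which reached into the Control range. The group means differed by -1.05, and by -1.24 without LLC 1, so the protease was lower relative to its inhibitor.

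For Mmp14 and Timp2 the difference was -3.05 to -2.57 in Control and -3.34 to -0.82 in LLC, again with LLC 1 at the extreme. The group means differed by 0.45 with LLC 1, where the SD within LLC was 0.93, and by 0.14 without it, where that SD was 0.59. Mmp15 and Timp2 differed between group means by 0.13, within the SD of either group. Without LLC 1 they differed by 0.29, slightly more than the SD of 0.25 within Control and of 0.23 within the other LLC samples.

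Against Timp3 the ADAMTS proteases shifted in opposite ways. Adamts4 rose relative to Timp3, from -8.25 to -4.95 in Control to -4.57 to -2.41 in LLC, with no overlap and a difference in means of 2.59. The lowest of these values came from the single count of Adamts4 in Control 2. Adamts1 against Timp3 lay between -0.80 and -0.07 in Control and between -0.53 and 1.55 in LLC, a difference in means of 0.96, with overlap from LLC 1 and LLC 3. Without LLC 1 that difference was 1.15, and LLC 3 still overlapped. Adamts5 lay between -2.23 and -1.74 in Control and between -4.68 and -1.91 in LLC. Its difference in means was -0.95 with LLC 1, where the SD within LLC was 1.01, and -0.59 without it, where that SD was 0.58, and the groups overlapped in either case.

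**Figure D3:**
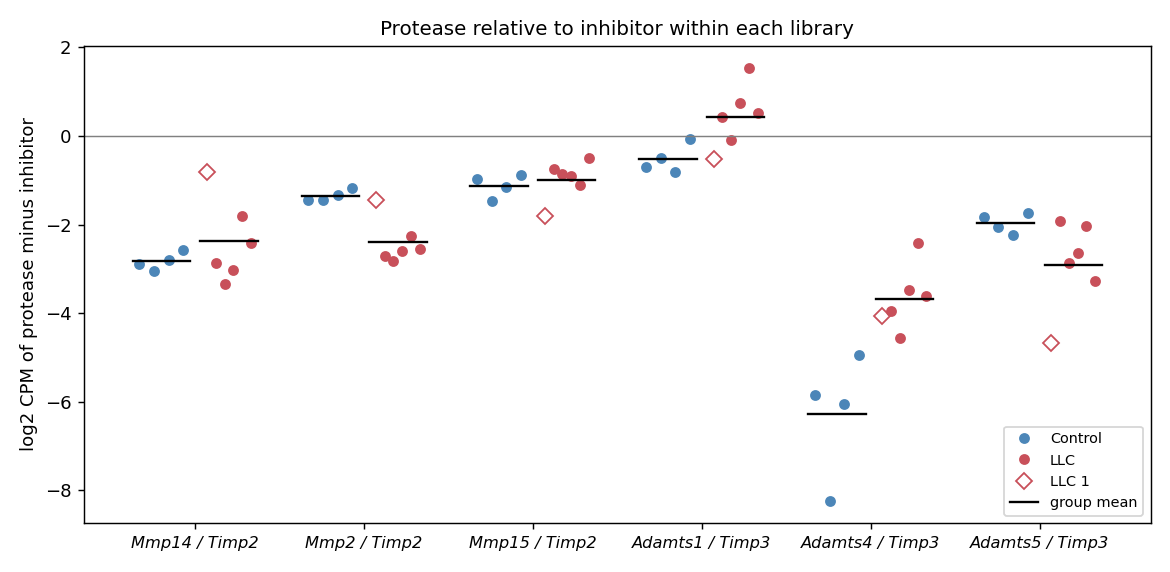
Log2 CPM of each protease minus that of its inhibitor within each library, for 6 pairs, in Control (blue) and LLC (red, LLC 1 as an open diamond), with bars at group means. Mmp2 is lower relative to Timp2 in every LLC sample but LLC 1, and Adamts4 is higher relative to Timp3 in all 6.

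Summed per kilobase of exon, the proteases came to 17.7 ± 1.96 CPM per kilobase in the 4 Control samples and 12.6 ± 1.88 (SD) in the 6 LLC samples, which is 70.9% of Control. The inhibitors came to 23.5 ± 2.55 and 13.5 ± 1.33 CPM per kilobase, which is 57.4% of Control. For both sums the LLC range lay below the Control range. Their log2 ratio, protease over inhibitor, spanned -0.61 to -0.01 in Control and -0.56 to 0.32 in LLC, so it overlapped, and the difference of 0.30 in means was below the SD of 0.33 within LLC. These sums add transcripts, not enzyme activity.

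The make-up of the protease sum changed more than the total. Mmp2 supplied 32.6% ± 1.81 (SD) of it in the 4 Control samples and 11.6% ± 1.80 in the 6 LLC samples. Adamts1 supplied 30.7% ± 5.83 and 53.6% ± 8.31, and Adamts4 0.624% ± 0.433 and 3.40% ± 1.40, with no overlap for any of these genes. Mmp14 kept a similar share, at 6.53% ± 0.587 and 6.85% ± 2.42. Of the inhibitor sum, Timp2 supplied 54.4% ± 4.76 in Control and 51.8% ± 15.3 in LLC, with 23.2% in LLC 1, where Timp3 instead supplied 44.0%.

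**Figure D4:**
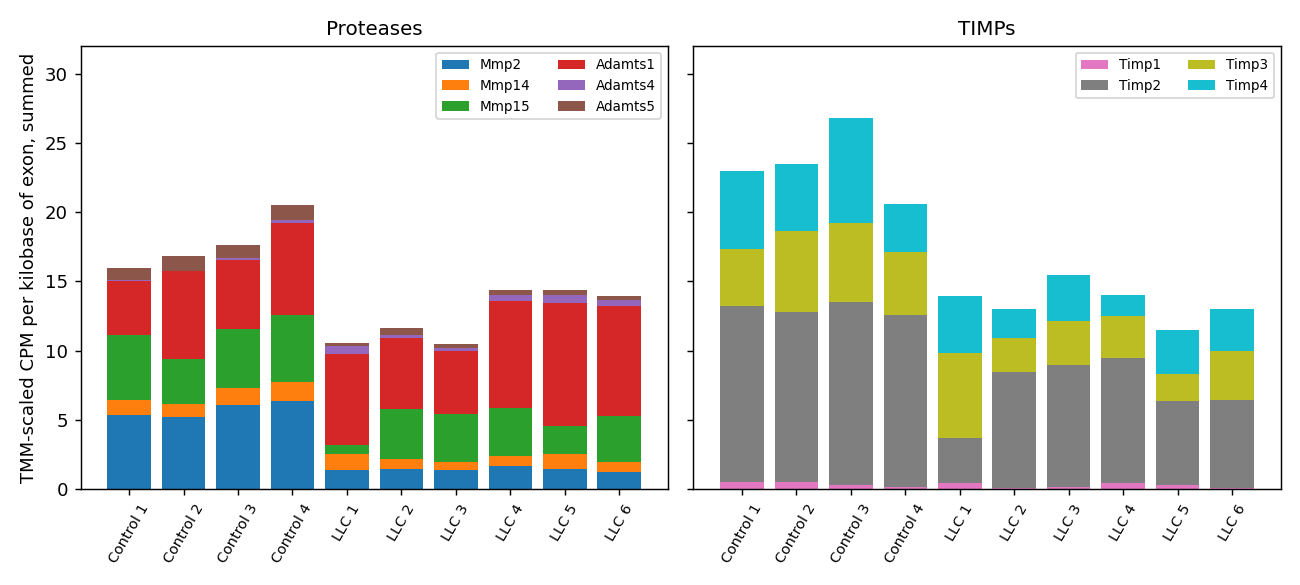
Levels as TMM-scaled CPM per kilobase of exon, stacked by gene for each of the 10 samples, proteases in the left panel and TIMPs in the right one. The Mmp2 block shrinks in every LLC sample while the Adamts1 block does not, and LLC 1 shows a small Timp2 block and a large Timp3 block.

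Promoter sequences were at hand for 7 of the 10 genes (RefSeq, GRCm38.p6), all but Mmp2, Adamts4 and Adamts5. Each was searched on both strands, from 250 bases before to 50 bases after the start, for motifs of inducible factors, with AP-1 as TGANTCA, CRE as TGACGTCA, STAT as TTCNNNGAA, FoxO as TGTTTAC and NF-kB by its degenerate consensus. They occurred in 0 of the 7, where 7.81%, 1.79%, 8.3%, 3.65% and 4.51% of 32851 promoters hold them. A narrower NF-kB motif, searched before the degenerate one, also occurred in 0 of the 7 and in 0.411% of all promoters. The GC box GGGCGG occurred in 6 of the 7, all but Timp4, and in 35.7% of all promoters, and the TATA box TATAAA in Adamts1 alone and in 13.6% of all. GC content ran from 53.3% in Timp4 to 68.7% in Timp2, above the median of 52.7% over all promoters. Starts here are those of RefSeq. The 150 bases before the start are shown for the gene with a TATA box, Adamts1, which did not fall, for Timp2, which fell, and for Mmp14, the partner of Timp2, with GC box and TATA box letters in capitals, at chr16:85803114-85803263 (minus strand), chr11:118355412-118355561 (minus strand) and chr14:54431448-54431597 (plus strand). For Timp2 the RefSeq start differs from the gene span given above, which on the minus strand begins at 118355740. The stretch shown for Timp2 therefore lies inside that span.
Adamts1: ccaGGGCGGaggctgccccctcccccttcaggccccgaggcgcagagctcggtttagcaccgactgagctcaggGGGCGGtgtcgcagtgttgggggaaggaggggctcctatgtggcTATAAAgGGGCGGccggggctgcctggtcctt
Timp2: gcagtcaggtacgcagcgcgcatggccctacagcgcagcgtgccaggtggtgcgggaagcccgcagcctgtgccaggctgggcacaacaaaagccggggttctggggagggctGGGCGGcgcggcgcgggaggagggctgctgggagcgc
Mmp14: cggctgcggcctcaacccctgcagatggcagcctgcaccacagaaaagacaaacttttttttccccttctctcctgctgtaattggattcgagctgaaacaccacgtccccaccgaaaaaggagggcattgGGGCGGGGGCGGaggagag
These matches are descriptions of sequence and no evidence of binding.

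The rest of both protease families was read from lists of related genes. Beside the counts called in these lists, 3.99% of all tested genes were called lower and 1.65% higher. Of 20 other metalloproteases, 4 had enough counts to be tested, 2 rose and the other 2 (Mmp11 and Mmp28, at -0.51 and -0.50 on the log2 scale) did not pass, and 5 of the 20 had no count in any sample. Mmp8, the collagenase stored in neutrophil granules, had 1, 3, 0 and 0 counts in the Control samples and 12 to 36 counts in each LLC sample and rose (log2 fold change 4.30 ± 0.57 SE, a value that depends on the prior count, edgeR quasi-likelihood, Benjamini-Hochberg adjusted p = 0.00109). Mmp9, gelatinase B, which is also carried by neutrophils, rose by 1.97 ± 0.51 (SE) on the log2 scale (edgeR quasi-likelihood, Benjamini-Hochberg adjusted p = 0.04), from 4 to 17 counts in Control to 16 to 60 in LLC. The Mmp9 call was lost without Control 1, 2 or 4 and without LLC 2, 4, 5 or 6 (edgeR quasi-likelihood, Benjamini-Hochberg adjusted p up to 0.125), whereas Mmp8 was called whichever sample was left out. Mmp9 was at 0.449 CPM in Control and 1.76 CPM in LLC, below the 4.82 CPM that Mmp2 retained. Neutrophil markers were also higher in LLC as a group. All 5 tested of 6 such markers (S100a8, S100a9, Csf3r, Cxcr2, Retnlg) rose, and the list summed to 0.636 to 1.78 CPM in Control and 30.4 to 67.4 CPM in LLC; their part in the rise of Mmp8 and Mmp9 was not tested.

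Mmp13, a collagenase of bone and healing tissue, was left out by the filter on low counts and is named here after its values were seen. It had 6, 44, 91 and 1 counts in the Control samples and 0 to 2 in LLC. Its Control values thus spread over a wide range, with Control 4 as low as the LLC samples. With no filter on low counts it and Mmp23 were also called lower.

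Of 16 other ADAMTS genes, 10 were tested, 4 fell and 1 rose. Adamts14, which encodes a procollagen processing enzyme, fell by 1.72 on the log2 scale, Adamts12 by 1.32, Adamts15 by 1.13 and Adamts10 by 0.70, with no overlap between the groups for any of these genes (edgeR quasi-likelihood, Benjamini-Hochberg adjusted p = 0.047, 0.0284, 0.0108 and 0.0178). Of all tested genes, 9.57% had LLC ranges below Control. Adamts14 was scarce, with 3 of the 10 samples at or below the floor of 3 counts. Adamts9, a versican-cutting enzyme, rose with Adamts4, by 0.94 ± 0.24 (SE) on the log2 scale (edgeR quasi-likelihood, Benjamini-Hochberg adjusted p = 0.0391), from 7.45 to 14.2 CPM with overlapping ranges. Adamts2, the main procollagen processing enzyme of skin and tendon, did not pass, at -0.18 ± 0.23 (SE) on the log2 scale. The median over the 10 was -0.54. The 5 calls of this list became 1 to 5 when each sample was left out, with 1 without Control 4, 2 without Control 1, 2 or 3 or LLC 6, and 3 without LLC 3 or LLC 5. Adamts15 alone was called in all 10 of these fits, and Adamts9 and Adamts14 in 3 each. Among 6 ADAMTS-like genes, which lack the protease domain, Papln fell by 2.96 and Adamtsl5 by 0.99 on the log2 scale, and the other 4 did not pass. Papln was scarce, with 2 of the 10 samples at or below the floor of 3 counts. The Adamtsl5 call was lost without Control 1 or Control 3.

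Of 11 tested regulators of these enzymes 5 fell, and the list median was -0.50 on the log2 scale. The 5 calls became 3 without Control 1 or Control 3, and Thbs2 was called in 3 of the 10 fits that left out a sample, while Lrp1, Plau and Plat were called in all 10. Plau and Plat, which encode the plasminogen activators, fell by 1.26 and 0.82 on the log2 scale. Reck, a membrane-anchored inhibitor of metalloproteases, fell by 1.05, and Lrp1, the receptor that takes up metalloproteases, ADAMTS5 and TIMPs from the cell surface, fell by 1.00. Thbs2, a matrix protein that helps clear Mmp2, fell by 1.10. Furin, the convertase that activates membrane-type metalloproteases and ADAMTS enzymes, was at 34.7 CPM in Control and 50.2 CPM in LLC, with no overlap, and its log2 fold change of 0.53 ± 0.15 (SE) was short of both limits (edgeR quasi-likelihood, Benjamini-Hochberg adjusted p = 0.0511). Plaur, the urokinase receptor, had 1.26 ± 0.35 (SE) and just missed (edgeR quasi-likelihood, Benjamini-Hochberg adjusted p = 0.0515). Bsg, an inducer of metalloproteases, had -0.50 ± 0.14 (SE).

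Among substrates, 5 of 9 tested fell, and the list median was -1.08 on the log2 scale. The fibrillar collagen genes Col3a1, Col1a1 and Col1a2 had log2 fold changes of -3.09, -3.08 and -2.77, beyond the -2.01 of Mmp2, and Col5a1 had -1.97. Exons of Col3a1 overlap another annotated transcript, Gm47302, on the same strand, so its counts are less certain. Fn1, which encodes fibronectin, fell by 1.08. The type IV collagen genes Col4a1 and Col4a2, substrates of Mmp2 in basement membranes, had -0.51 ± 0.15 and -0.42 ± 0.12 (SE) and did not pass (edgeR quasi-likelihood, Benjamini-Hochberg adjusted p = 0.0585 and 0.0668). Vcan, the versican gene cut by the ADAMTS proteases, had -0.95 ± 0.30 (SE, edgeR quasi-likelihood, Benjamini-Hochberg adjusted p = 0.0761), while Acan, Bcan and Ncan were too low to be tested.

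**Figure D5:**
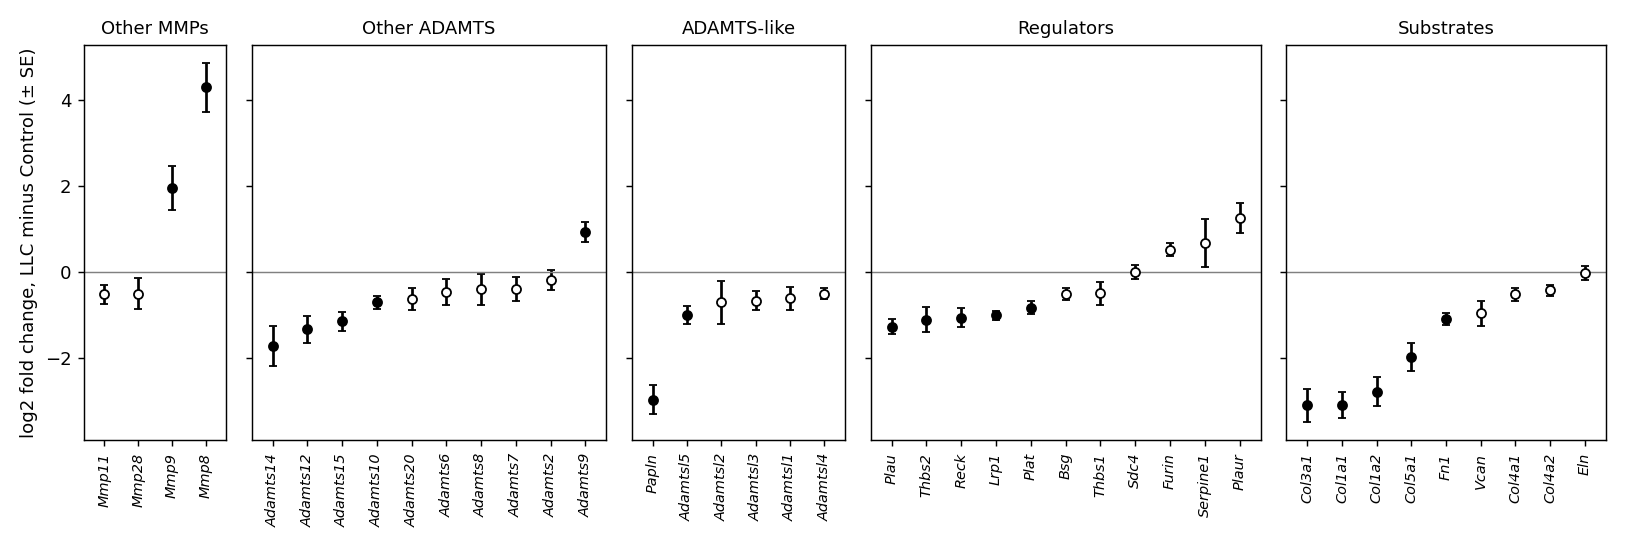
Log2 fold change of LLC minus Control with its SE for the tested genes of 5 related lists, ordered within each list. Filled points passed the threshold, and points above 0 that passed are Mmp8, Mmp9 and Adamts9, with the lowest values at Col3a1, Col1a1 and Papln.

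Markers of the cells that could supply these transcripts were read beside them. Across all tested genes 3.99% were called lower and 1.65% higher. Of 6 fibroblast-lineage markers, 5 fell, namely Pdgfra (-1.40), Dpt (-1.84), Pi16 (-1.55), Dpp4 (-1.89) and Lum (-2.54 on the log2 scale), with Mmp2 (-2.01) and Adamts5 (-1.57) within this range and Timp2 (-0.86) outside it. Cd34, which endothelial cells also express, had 0.26 ± 0.12 (SE) and did not pass. The whole list, to which Cd34 contributed the most, summed to 69.7 to 84.7 CPM in Control and 43.5 to 61.3 CPM in LLC, and none of its genes was at 0. Of 6 mural cell markers 4 fell (Rgs5, Pdgfrb, Cspg4 and Notch3, by 0.65 to 1.06 on the log2 scale). Of 6 endothelial markers 1 fell (Kdr, by 1.13). Cdh5 (-0.37) and Emcn (-0.43) missed only the fold limit (edgeR quasi-likelihood, Benjamini-Hochberg adjusted p = 0.0323 and 0.0194). Pecam1, Tek and Esam had positive changes that did not pass. Of 3 tested tenocyte markers 2 fell (Tnmd and Chad), with 6 and 4 of the 10 samples at or below the floor of 3 counts. Of 3 tested satellite cell markers 2 fell (Pax7 and Myf5). The Kdr call was lost without Control 1, 3 or 4 or LLC 6, and that of Myf5 without Control 1, 2 or 4 or LLC 2, 3, 5 or 6. Of 5 tested macrophage markers 1 fell (Mrc1). Adipocyte markers summed to 1.04 to 7.19 CPM in Control and 1.64 to 3.50 CPM in LLC, and muscle fiber markers to 104898 to 112191 and 70964 to 113134 CPM, LLC 1 being the lowest. The part of these cell types in the change of the proteases and TIMPs was not tested.

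For each gene, the closest patterns were sought among 10281 or 10282 other genes with an average log2 CPM of at least 1, by the root mean square difference over the 10 samples in log2 CPM relative to the Control mean. Mmp2 ran closest to Serpinf1, which encodes a secreted factor of fibroblast-like cells, and to Dpt, which encodes the matrix protein dermatopontin (differences of 0.19 and 0.25 log2 units). Adamts5 ran closest to Mrc2, the collagen uptake receptor, and Tnxb, which encodes tenascin X (0.20 and 0.21). Timp2 had the tightest match of the 10, to the mitochondrial genes Mtfp1 and Sirt3 (0.07 and 0.08). Timp3 ran closest to Adgrf5 and F2r (0.21 and 0.22), and Adamts1 to Csgalnact1, an enzyme of chondroitin sulfate synthesis, and Cd34 (0.18 and 0.20). Mmp14 ran closest to Ntn1 and Ltbp1 (0.19 and 0.19), Mmp15 to Grtp1 and Dagla (0.10 and 0.16) and Timp4 to Cfd and Scn7a (0.34 and 0.37). The nearest genes to the scarce Adamts4, Il4ra (0.70) and an identifier without a symbol (ENSMUSG00000091747, 0.62), and to Timp1, Pdgfd (0.38) and Hoxa11os (0.48), were distant by comparison. No gene of this set was among the closest 2 of another.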

How the data were processed

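Total RNA of whole muscle was made into stranded paired-end libraries. Per the methods, the authors mapped reads to mm10 (TopHat2) and took counts over RefSeq genes (HTSeq, defaults). The deposited values are raw read counts per Ensembl gene identifier, 1 library per sample, so the annotation release and strand setting behind them are uncertain. That matters for genes with antisense exons. Of 39179 identifiers, 37693 were found in GENCODE M21 (GRCm38), which gave symbols, coordinates and exonic lengths. Groups came from sample titles.

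Genes were kept by filterByExpr (minimum count 10), libraries scaled by TMM, and LLC compared with Control by edgeR 4.0.16 (quasi-likelihood, R 4.3.3), checked on simulated data. SEs come from the F statistic and 95% intervals from the SE with the residual degrees of freedom. Log2 CPM used a prior count of 2. DESeq2 1.42.0 and limma 3.58.1 were alternatives. Named from the related lists were genes past the threshold and otherwise the 2 most abundant, with a few others named for their role after their values were seen. The members and lists were chosen with earlier results of these data known. The count floors cover counting error only, whereas SEs, intervals and p-values include the spread between mice of this series. Some overlapping and marker genes are not reported here.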

Additional observations from a re-analysis of the deposited data

Results flagged for a closer look

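Mmp15 in LLC 1 was far from the rest of its group. Its log2 CPM there was 1.85, against 3.46 to 4.28 in the other 5 LLC samples, a gap of 0.663 of the range of the group. Such a gap was sought in 32 groups of values, the 10 genes and 6 protease to inhibitor differences in Control and LLC, where chance gives about 1.6, and 1 was found.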

How the results depend on the processing

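Mmp2 and Adamts5 were called lower in all 19 alternative fits, with log2 fold changes of -2.06 to -1.96 and -1.71 to -1.43, and no gene of the set changed sign in any fit. The count of 4 called genes became 2 when every sample had to reach 10 counts, where Adamts4 was filtered out, and 7 with limma voom and sample quality weights. Leaving out each sample in turn gave 2 to 6. These counts, and those below, also depend on how many genes each fit calls. Over all tested genes the share called was 5.63% in the main fit, 8.29% with DESeq2 and 7.65% without LLC 1. For most other fits no such share is given, so their counts cannot be read as a result about these genes alone. The count of 1 called inhibitor became 2 with upper-quartile factors, in the DESeq2 Wald test and with an unadjusted p, 3 with voom, 0 with at least 10 counts in every sample, and 0 to 3 when each sample was left out. Over the lists of related and marker genes, 40 calls became 24 with at least 10 counts in every sample. Leaving out each sample gave 1 to 5 calls among other ADAMTS genes, 1 to 3 among other metalloproteases and 3 to 6 among regulators. With the replicate number as a block, the counts were 2 genes, 0 inhibitors and 15 list genes, and calls over all genes went from 715 to 112. The numbers belong to different animals, and the correlation of deviations between same-numbered samples was -0.08 to 0.13 in 4 pairs, so they are not paired. Apart from the filter, the causes were not tested. Other library scalings moved the median of all genes by -0.03 to 0.01 on the log2 scale. The protease to inhibitor differences moved by less than the larger SD of the groups under every alternative. Depth limits Adamts4 and Timp1.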
